A study of Sus scrofa with 180 samples.

Results

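The anaphase-promoting complex (APC/C) was represented by 4 of its subunits, ANAPC1, ANAPC4, CDC26 and CDC27, in 2 skeletal muscles of the pig, Longissimus (LM) and Semimembranosus (SM). The gene lists of the study, in the copies at hand, name 3481 genes, and the copy of the list for SM was incomplete. The values used were those of every probe to which these copies give 1 of these 4 symbols. There were 6 such probes among 15198 on the array, and all 6 were among the 10987 probes kept. ANAPC4 and CDC27 had 2 probes each, and ANAPC1 and CDC26 had 1 probe each. The lists name only probes that the study had called different between the muscles on these same arrays, so the direction of the members' muscle difference was set by the way they were chosen and is given as a description.

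RNA from both muscles of 90 pigs was hybridized on single-colour Agilent arrays, 1 array per muscle and pig, which gave 90 arrays of LM and 90 of SM. The animals were unmodified and untreated crossbred pigs of commercial slaughter weight, from half-sib families of an intercross between a Pietrain type line and a synthetic line, and both muscles of a carcass were sampled soon after death. Family, sex and slaughter batch are not in the labels, so pigs of 1 family were treated as independent. Each sample was a piece of whole muscle, in which fewer cells of a type and less RNA per cell cannot be told apart.

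The APC/C is a large ubiquitin ligase that attaches ubiquitin chains to securin and the cyclins and thereby lets chromosomes separate and cells leave mitosis. ANAPC1 is its largest subunit and, with ANAPC4, belongs to the platform that joins the catalytic core to the arm of the complex. CDC27 (APC3) is a subunit of that arm, built from tetratricopeptide repeats, and binds the activators CDC20 and FZR1. CDC26 is a very small protein that stabilizes another repeat subunit, CDC16. The fibres of adult muscle have left the cell cycle, while the complex with FZR1 is also known to work in cells that no longer divide.

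Each probe was a 60-base oligonucleotide designed on a pig transcript sequence. The first 30 bases of each are shown, since over the whole array the C content of this end moved with the muscle. The mean of probes with 8 or more C in the first 15 bases minus that of probes with 2 or fewer, here called the C-rich index, had medians over arrays of -0.37 (LM) and 0.36 (SM) on the log2 scale. Capitals mark each C within the first 15 bases. The ANAPC4 and CDC27 probes are called (a) and (b) from here on.
ANAPC1, probe CF790269.1_672: atttgtCtgCaCCtaatgcttctgtaacag
ANAPC4 (a), probe BM659483.1_1007: gaCatagaCgatggaccaagatgaccacta
ANAPC4 (b), probe CF176892.1_1129: agtggtaCgaCttCCttcaaaacagcaacc
CDC26, probe BF079428.1_193: tCttgCCtttgtCtacgttggaatcaagat
CDC27 (a), probe CA779434.1_1012: CtgCttaCCtgtatttgttagtcaagctgt
CDC27 (b), probe CA779434.1_1150: attCaagtCagagtCttagattaggtattg
The members held between 2 and 4 C in that stretch, so none belonged to the C-rich class of 8 or more, and ANAPC4 (a) alone belonged to the C-poor class of 2 or fewer. Both CDC27 probes come from the same transcript sequence.

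The CDC26 probe differed from the others at its other end. Its last 30 bases are shown with the letters in capitals that lie in a run of at least 14 bases found in another probe of the array, on either strand.
CDC26, end of the probe: cctatttgattTGGGAGTTCCTGTCGTGGC
Bases 42 to 60 of the CDC26 probe lay in such runs, which 7 probes held on the same strand and 2 on the other. Of all probes on the array, 2.06% shared a run of this length with at least 9 others. The other member probes shared one with 0 to 2 probes.

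The measured signal was the processed signal of the scanner's software, put on the log2 scale, with the median of each array over the kept probes subtracted. A value of 0 is therefore the median of an array, and levels of different probes cannot be compared. The median processed signal of an array ranged from 171 to 304 in LM and from 105 to 252 in SM, and between arrays the percentage of probes well above background ranged from 69.2% to 99.9% in LM and from 63.4% to 83.3% in SM. No 2 arrays held identical values. The 21 slides and 10 scan days of LM and the 14 slides and 5 scan days of SM had none in common, so muscle and batch cannot be told apart in any difference between LM and SM.

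All 6 member probes read higher in LM, by 1.37-fold to 2.15-fold. By the same test, limma's moderated test with Benjamini-Hochberg adjustment over all kept probes, 35.7% of the kept probes were higher in LM and 47.7% higher in SM. The members' count is no evidence beside this background, since the list that names them was made from these arrays.

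**Figure D1:**
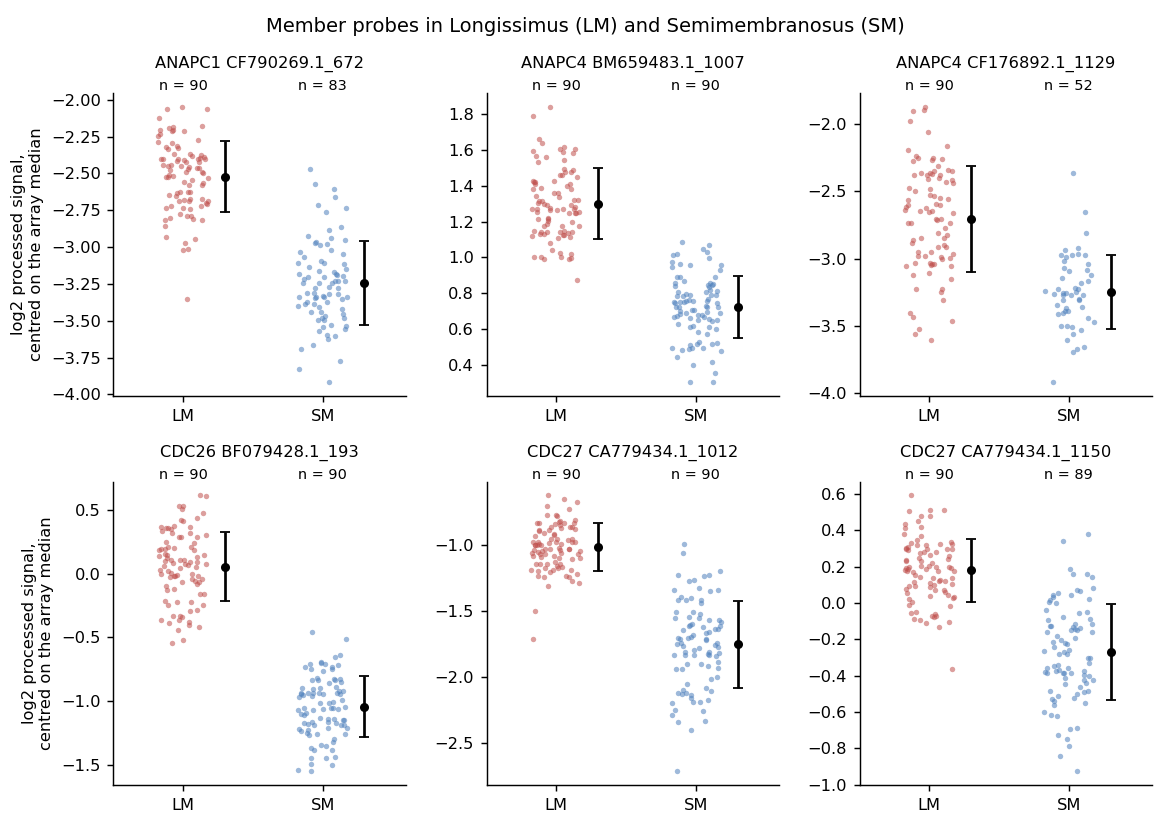
Values of the 6 member probes on each array, as log2 processed signal centred on the median of the array (y axis, 1 scale per panel), in LM (red) and SM (blue). Black points and bars are the mean and SD, and n counts the arrays whose spot was usable. CDC26 shows the least overlap of the muscles, and ANAPC4 CF176892.1_1129 has usable spots on 52 arrays of SM.

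Among the platform subunits, ANAPC1 was read close to background. In LM its centred log2 signal ranged from -3.35 to -2.05 with a median of -2.49 (mean -2.52 ± 0.24, SD, n = 90). In SM it ranged from -3.92 to -2.47 with a median of -3.27 (mean -3.25 ± 0.29, SD, n = 83). The ranges overlapped, and 7 dim spots, not well above background, were left out in SM. ANAPC1 was 1.65-fold higher in LM (log2 difference 0.72, SE 0.040, limma adjusted p = 6.46e-41), and its value was higher in LM in 80 of 83 pigs. After normexp background correction the log2 difference was 0.24.

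ANAPC4 (a) was the brighter of the pair of ANAPC4 probes and had a usable spot on every array. It ranged from 0.87 to 1.84 in LM with a median of 1.27 (mean 1.30 ± 0.20, SD, n = 90), and from 0.30 to 1.09 in SM with a median of 0.73 (mean 0.72 ± 0.18, SD, n = 90). Only 11 arrays of LM lay below the highest array of SM. The probe was 1.49-fold higher in LM (log2 difference 0.58, SE 0.028, limma adjusted p = 3.11e-48), in 90 of 90 pigs. ANAPC4 (b) was dim. It ranged from -3.60 to -1.87 in LM with a median of -2.66 (mean -2.70 ± 0.39, SD, n = 90), and from -3.92 to -2.36 in SM with a median of -3.26 (mean -3.25 ± 0.28, SD, n = 52). In SM 37 of its spots were not well above background and 1 outlying value was removed, so that its SM mean rests on the arrays where the spot was read above background. It was 1.46-fold higher in LM (log2 difference 0.55, SE 0.062, limma adjusted p = 6.38e-15), in 45 of 52 pigs. With those spots kept the log2 difference was 0.82, and after normexp correction it was 0.11.

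CDC27 (a) ranged from -1.71 to -0.62 in LM with a median of -1.01 (mean -1.02 ± 0.18, SD, n = 90). In SM it ranged from -2.71 to -0.996 with a median of -1.74 (mean -1.75 ± 0.33, SD, n = 90), a wider spread than in LM. It was 1.67-fold higher in LM (log2 difference 0.74, SE 0.040, limma adjusted p = 4.97e-43), in 87 of 90 pigs. CDC27 (b), from the same transcript, ranged from -0.36 to 0.59 in LM with a median of 0.18 (mean 0.18 ± 0.17, SD, n = 90), and from -0.93 to 0.38 in SM with a median of -0.28 (mean -0.27 ± 0.27, SD, n = 89). It was 1.37-fold higher in LM (log2 difference 0.45, SE 0.034, limma adjusted p = 3.47e-28), in 84 of 89 pigs. Both probes had overlapping ranges in the muscles and varied more between pigs in SM. With the C-rich index of each array in the model, the log2 difference was 0.51 for CDC27 (a) and 0.24 for CDC27 (b), and after normexp correction it was 0.39 for CDC27 (a).

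CDC26, the small stabilizing subunit, had the largest muscle difference of the 6 probes. It ranged from -0.54 to 0.62 in LM with a median of 0.08 (mean 0.06 ± 0.27, SD, n = 90), and from -1.55 to -0.46 in SM with a median of -1.06 (mean -1.05 ± 0.24, SD, n = 90). Only 2 arrays of LM lay below the highest array of SM. CDC26 was 2.15-fold higher in LM (log2 difference 1.10, SE 0.038, limma adjusted p = 7.42e-68), in 90 of 90 pigs, and 5.48% of the kept probes had a higher log2 difference. Of the probes that share the end of the CDC26 probe on the same strand, 4 were kept, and all 4 were higher in LM, with log2 differences from 1.19 to 2.25. The 2 that hold it on the other strand had log2 differences of 0.24 (TGS1) and -0.24 (unnamed). All 6 varied with CDC26 over the pigs in LM, with r from 0.54 to 0.71, where the 95th percentile of r over all probes was 0.48. In LM 69.4% of the variance of CDC26 lay between slides, and r within slides was not computed for these 6 probes. In SM r was 0.20 to 0.26 for those on the same strand and -0.15 to -0.02 for those on the other. The part of the shared bases in the CDC26 signal was not tested.

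**Figure D2:**
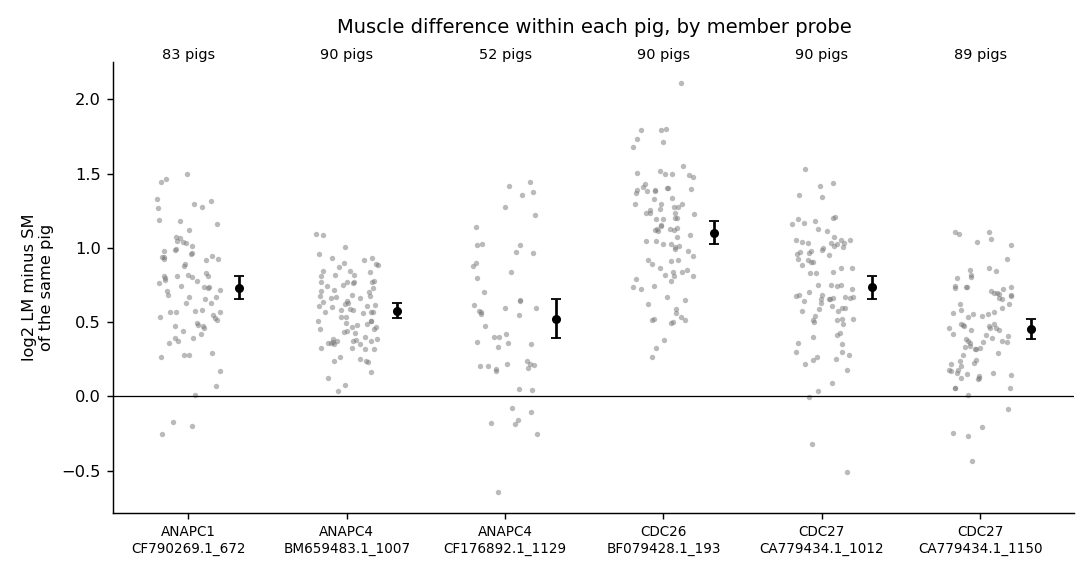
The log2 difference LM minus SM within each pig (y axis) for each member probe, with 1 grey point per pig that had both values. Black points and bars are the mean and its 95% interval; the means run from 0.45 for CDC27 (b) to 1.10 for CDC26.

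Since the complex is built from its subunits together, the muscle ratios of the probes were compared with each other within pigs. The centring of an array cancels in such a difference. Of 15 pairs of probes, 12 differed in their log2 ratio (sign-flip permutation test, two-sided, adjusted p of 0.05 or less over the 15 pairs). CDC26 had a larger ratio than each of the other 5 probes, by 0.37 over CDC27 (a) (SE 0.051, n = 90 pigs) to 0.65 over CDC27 (b) (SE 0.046, n = 89 pigs). These differences had an adjusted p of 2.14e-05, which rests on the smallest p the permutations can give. The 2 CDC27 probes, which read 1 transcript, also differed from each other, by 0.27 (SE 0.018, n = 89 pigs, permutation adjusted p = 2.14e-05), a difference larger than those of 7 of the 13 pairs of different genes. The other 3 pairs did not pass: ANAPC1 against CDC27 (a) with a difference of 0.0032 (95% interval -0.11 to 0.12), ANAPC4 (a) against ANAPC4 (b) with 0.016 (-0.090 to 0.12), and ANAPC4 (b) against CDC27 (b) with 0.056 (-0.10 to 0.21). The order below CDC26 depended on the background. After normexp correction ANAPC1 had a smaller ratio than ANAPC4 (a), CDC27 (a) and CDC27 (b), by -0.36, -0.16 and -0.17, and the pair of CDC27 probes differed by -0.034 (permutation adjusted p = 0.23).

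Other genes around the complex were read from the same gene lists. The copy for SM was incomplete, so genes higher in SM may be missing. Of the APC/C subunits, ANAPC7, another repeat subunit of the arm, was the only other one with a named probe, and 9 of the 14 subunits listed were not analysed here, as were the activators CDC20 and FZR1. ANAPC7 went the other way, with a mean of 0.81 ± 0.36 in LM and 1.26 ± 0.35 in SM (SD, n = 90 in each), a log2 difference of -0.45 (limma adjusted p = 1.11e-14), and was higher in LM in 9 of 90 pigs. Both spindle checkpoint genes with a probe were higher in LM: MAD2L1, which holds CDC20 inactive until chromosomes are attached, by 0.74 (limma adjusted p = 1.71e-31), and BUB3 by 0.80 (limma adjusted p = 6.69e-14). UBE2D1, a ubiquitin-conjugating enzyme that can supply the complex, was higher in SM (log2 difference -0.39, limma adjusted p = 2.75e-06).

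Among genes whose proteins the complex marks for destruction, all 5 probes of 4 genes were higher in LM. Over all kept probes 35.7% were higher in LM. GMNN (geminin, the inhibitor of DNA replication licensing) differed by 0.60, the SKIL probes by 0.81 and 0.43, SKP2 by 0.53 and the spindle protein TPX2 by 0.19 on the log2 scale. TPX2 did not pass with the C-rich index in the model (limma adjusted p = 0.40). Of the 4 proliferation genes with a probe, MKI67 was higher in LM by 0.16, while the replication genes PCNA, MCM2 and MCM5 were higher in SM, with log2 differences of -0.60, -0.68 and -0.66. MKI67 did not pass in that model either, where its difference was -0.14 (limma adjusted p = 0.094). SCF, the other large ubiquitin ligase of the cell cycle, was seen through SKP2 and through BTRC (-0.32) and FBXO32 (-0.37 and -0.30 by its pair of probes), a muscle atrophy gene, which were higher in SM. BTRC also missed the threshold with the C-rich index in the model, at -0.048 (limma adjusted p = 0.55). In that model MAD2L1 differed by 0.39, GMNN by 0.33, the less different SKIL probe by 0.26, UBE2D1 by -0.69 and the FBXO32 probes by -0.58 and -0.49. Over all 16 probes other than the members, 8 were higher in LM and 8 in SM, and their median log2 difference was -0.070 beside -0.068 over all kept probes. Each of these probes was named by the same lists, so the share that passed the test carries no information. With the list for SM incomplete, the counts by direction and the median are a description only.

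Markers of the tissue and of other cells were named by the same lists, so each had already been called different between the muscles. Their differences are given as a description. ACTA1 and MYH1, which define skeletal muscle fibres, were read far above the array median, at mean centred log2 levels from 8.30 to 9.46 in LM and from 8.86 to 10.2 in SM. They were higher in SM, with log2 differences of -0.83 and -0.70 for the ACTA1 probes and -0.57 for MYH1. The other fibre probe, for CKM, read near the array median, with means of 0.08 in LM and -0.22 in SM. It was higher in LM by 0.30. No probe of the fibroblast and red blood cell lists was named. Of 12 probes for satellite cells, endothelium, adipocytes, leukocytes and smooth muscle, 11 were higher in SM and 1, for CD68, was higher in LM. Over all kept probes 47.7% were higher in SM and 35.7% in LM. The mean level of the endothelial probes ranged from 0.17 to 1.09 over LM arrays and from 0.67 to 1.77 over SM arrays, that of the adipocyte probes from -3.46 to 1.77 and from -2.85 to 2.13, and that of the leukocyte probes from -2.45 to -0.90 and from -2.08 to -0.35. NCAM1, the satellite cell probe, had a mean of -2.48 in LM and -2.00 in SM. The smooth muscle probes for TAGLN and MYH11 had means of -2.85 and -2.63 in LM and of -1.92 and -0.87 in SM. Those for ACTA2 read far above the array median, at means of 6.69 and 9.27 in LM and of 7.16 and 9.74 in SM. The ACTA2 probes differed by -0.47 and -0.48 on the log2 scale, and by -0.19 and -0.18 with the C-rich index in the model. Whether they read smooth muscle alone was not tested. The part of cell composition in the members' differences was not tested.

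Whether the subunits varied together from pig to pig was asked within each muscle, where the muscle contrast that chose the probes plays no part. Pearson r and Spearman rho were computed for 15 pairs in each muscle, with 100000 permutations of the pigs and adjustment over the 15 pairs. For the genes with 2 probes, the pairs give the agreement between probes of 1 gene. Both CDC27 probes come from the same transcript sequence, while the ANAPC4 probes come from different ones and ANAPC4 (b) was dim. CDC27 (a) and (b) correlated with r = 0.81 in LM (rho = 0.82, n = 90) and r = 0.92 in SM (rho = 0.91, n = 89), and none of the 10986 other probes had a higher r with either. ANAPC4 (a) and (b) correlated with r = 0.58 in LM (rho = 0.55, n = 90, permutation adjusted p = 7.5e-05 for both), and 2 other probes had a higher r with ANAPC4 (a). In SM their r was 0.39 (rho = 0.37, n = 52, permutation adjusted p = 0.017 and 0.026). Without the 2 arrays farthest from the median r was 0.32 (permutation adjusted p = 0.083), and within slides it was 0.33 (permutation adjusted p = 0.065). With all spots kept, dim ones included, it was 0.64 (n = 89, permutation adjusted p = 7.5e-05).

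**Figure D3:**
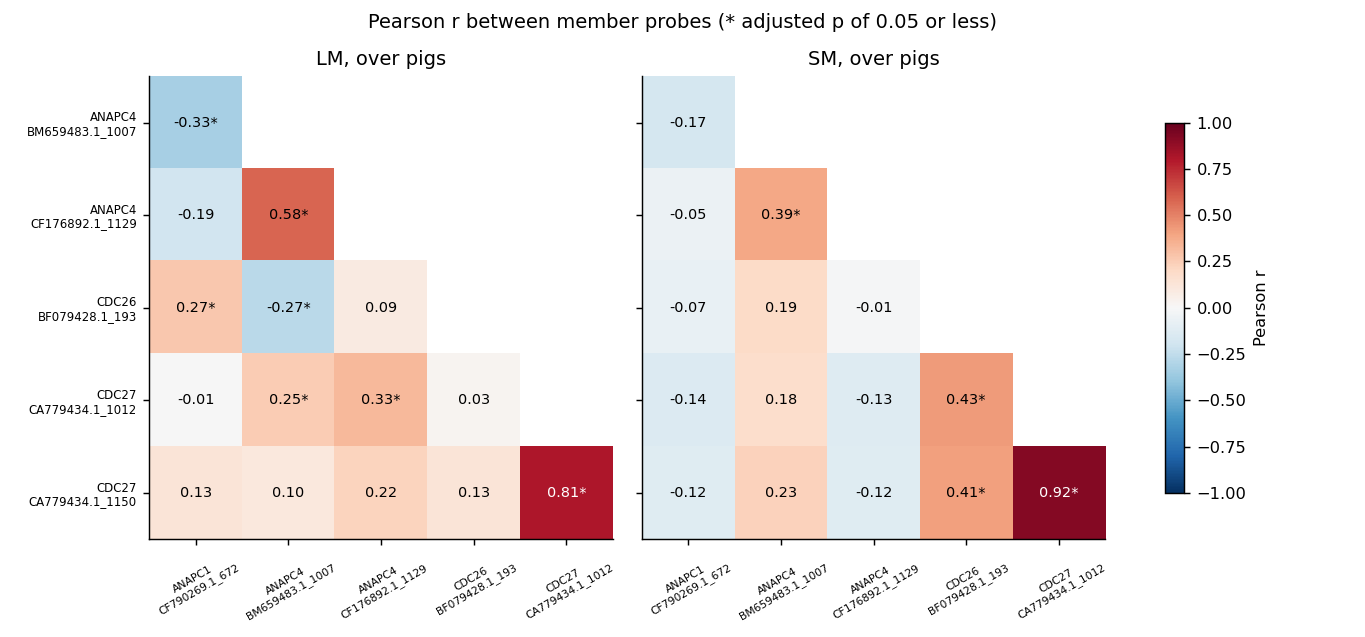
Pearson r over pigs between the member probes in LM (left) and SM (right). Each cell is 1 pair of probes, the colour runs from -1 (blue) to 1 (red), and an asterisk marks a permutation adjusted p of 0.05 or less; the pairs of probes of 1 gene and, in SM, CDC26 with CDC27 stand out.

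Between different genes, 5 of 13 pairs passed in LM, with r between -0.33 and 0.33. Over all other probes, 21.6% of the r values with the members in LM were at least as far from 0 as the smallest r that passed, 0.25, so that such values were common on the array. Each of the 5 pairs lost its call under at least 1 alternative. ANAPC1 and ANAPC4 (a), both platform subunits, went in opposite directions, with r = -0.33 (rho = -0.33, permutation adjusted p = 0.0056 and 0.0054) and -0.37 within slides. ANAPC4 (b) and CDC27 (a) had r = 0.33 (rho = 0.32, permutation adjusted p = 0.0056 and 0.0069), 0.28 within slides and 0.38 without the 2 farthest arrays, but 0.19 after normexp correction (permutation adjusted p = 0.21) and 0.28 in LM arrays of the same software version as SM (n = 46, permutation adjusted p = 0.13). ANAPC4 (a) and CDC27 (a) had r = 0.25 (rho = 0.22, permutation adjusted p = 0.036 and 0.075), 0.27 within slides, and -0.078 after normexp correction. The pairs of CDC26 in LM did not hold within slides. ANAPC1 and CDC26 had r = 0.27 (rho = 0.33, permutation adjusted p = 0.025 and 0.0054) but 0.12 within slides (adjusted p = 0.38). ANAPC4 (a) and CDC26 had r = -0.27 (rho = -0.24, permutation adjusted p = 0.025 and 0.050) but -0.020 within slides (adjusted p = 0.85). With the centre of each array taken over its passed spots, r of ANAPC1 with ANAPC4 (a) was -0.073 (permutation adjusted p = 0.49).

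In SM, CDC26 and CDC27 varied together. CDC26 had r = 0.43 with CDC27 (a) (rho = 0.39, n = 90, permutation adjusted p = 0.00022 and 0.0014) and r = 0.41 with CDC27 (b) (rho = 0.37, n = 89, permutation adjusted p = 0.0004 and 0.0022). Without the 2 farthest arrays the values were 0.42 and 0.41, and within slides they were 0.44 and 0.45. All 3 probes fell as the C-rich index of an array rose in SM, with r of -0.44, -0.45 and -0.38, and after removal of that index CDC26 had r = 0.29 with CDC27 (a) and 0.30 with CDC27 (b) (permutation adjusted p = 0.024 for both). After normexp correction r was 0.62 with CDC27 (a) and 0.22 with CDC27 (b), and the latter missed the threshold (adjusted p = 0.082). Of all other probes, 4.09% and 4.59% had a higher r with CDC26 than the CDC27 probes had, and 7.69% and 7.79% had a higher r with CDC27 (a) and (b) than CDC26 had. In LM, CDC26 had r = 0.030 with CDC27 (a) and 0.13 with CDC27 (b) (permutation adjusted p = 0.83 and 0.32). Over all other probes, 6.89% of the r values with the members in SM were at least 0.41 in size. No other pair of different genes passed in SM, where r ranged from -0.17 to 0.23.

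The difference of r between the muscles was itself tested for the 15 pairs over pigs with all 4 values. No pair passed after adjustment, and the lowest adjusted p was 0.065, for CDC26 with CDC27 (a), with r of 0.030 in LM and 0.43 in SM (n = 90, permutation p = 0.0043 before adjustment). A difference in correlation between LM and SM was therefore not shown for any pair.

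**Figure D4:**
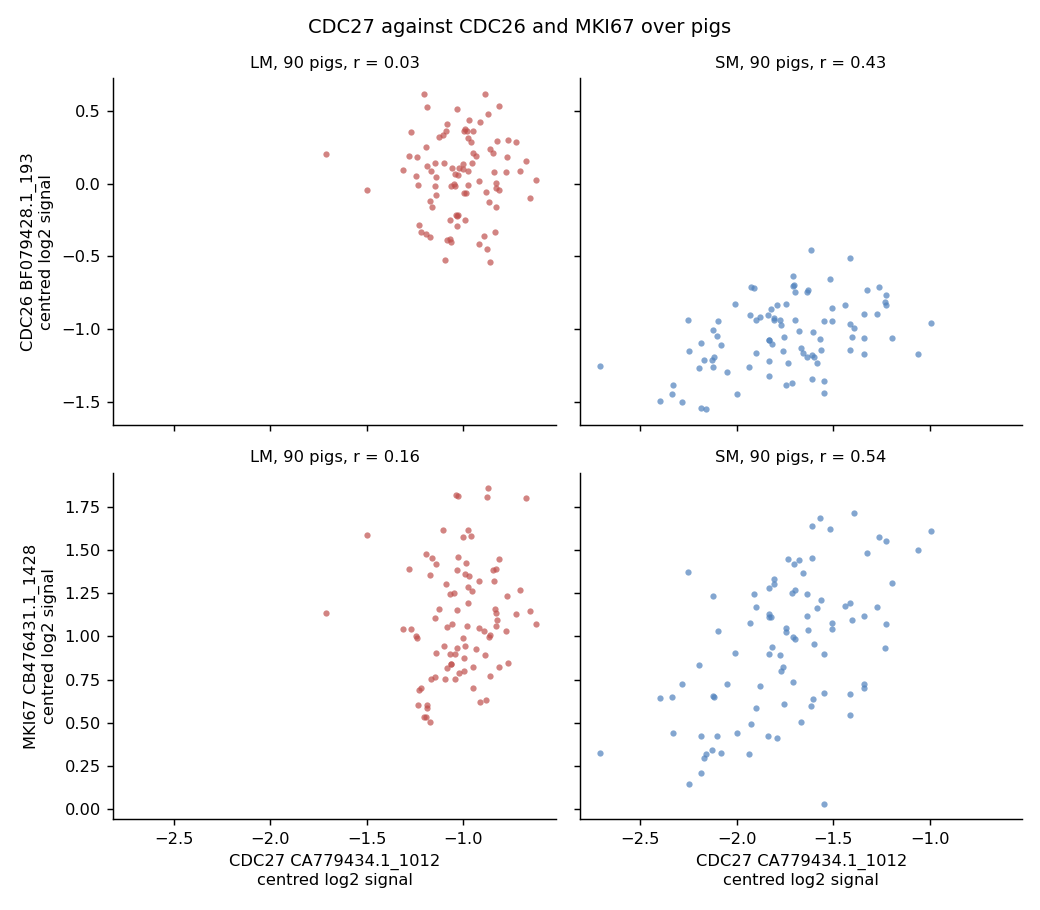
CDC27 (a) (x axis) against CDC26 (top) and MKI67 (bottom), all as centred log2 signal, with 1 point per pig, in LM (left) and SM (right). The SM clouds are tilted, with r of 0.43 and 0.54, while r in LM is 0.03 and 0.16.

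The other cell cycle genes were set against the members over pigs in the same way, over 192 relations of 6 probes with 16 probes in 2 muscles. Of these, 41 (21.4%) had a permutation adjusted p of 0.05 or less. The smallest r among them was 0.27 in size, and 22.0% of the r values of all other probes with the members reached it, so the share that passed was no higher than over the array. CDC27 in SM had the strongest of them. MKI67, the proliferation marker, had r = 0.54 with CDC27 (a) and 0.51 with CDC27 (b), GMNN had 0.50 and 0.52, MAD2L1 had 0.49 and 0.48 (permutation adjusted p = 0.00024 for each), and UBE2D1 had 0.41 and 0.43 (permutation adjusted p = 0.0013 and 0.00077). Spearman's rho was 0.51 and 0.47 for MKI67, 0.50 and 0.51 for GMNN, 0.47 and 0.46 for MAD2L1, and 0.43 and 0.45 for UBE2D1. Within slides r of these 8 relations ranged from 0.42 to 0.55, after removal of the C-rich index from 0.34 to 0.46, and without the 2 farthest arrays from 0.39 to 0.50. Over all other probes, the 95th percentile of r in SM was 0.47 for CDC27 (a) and 0.46 for CDC27 (b). In LM the same 8 relations ranged from 0.084 to 0.29. Those of GMNN with CDC27 (a) and (b) passed there too (r = 0.29 and 0.27, permutation adjusted p = 0.036 and 0.0496). So did UBE2D1 with CDC27 (b) (r = 0.27, permutation adjusted p = 0.0496). After removal of the C-rich index these were 0.20, 0.079 and 0.17. The difference between the muscles was not tested for the 8 relations.

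CDC26 correlated with MAD2L1 in SM as well (r = 0.51, rho = 0.52, permutation adjusted p = 0.00024 and 0.00038), with 0.55 within slides, 0.54 without the 2 farthest arrays and 0.37 after removal of the index. For the same pair in LM r was 0.060 (permutation adjusted p = 0.74), but 0.41 within slides. The replication genes were not of 1 sign in SM. MCM2 had r of -0.34 with CDC26, -0.30 with CDC27 (a) and -0.34 with CDC27 (b), and MCM5 had r of -0.28 with CDC26 (permutation adjusted p = 0.0097, 0.033, 0.012 and 0.046). PCNA had positive r, 0.28 with CDC26 and 0.32 with ANAPC4 (a) (permutation adjusted p = 0.046 and 0.017), and 0.18 and 0.24 with the CDC27 probes, which missed the threshold. MCM2 and MCM5 had negative r with CDC26 in LM as well (-0.29 and -0.37, permutation adjusted p = 0.034 and 0.0041), but -0.14 and -0.21 within slides. In LM, ANAPC1 went against the pair of FBXO32 probes (r = -0.42 and -0.38, rho = -0.36 for both, -0.38 and -0.34 within slides, -0.34 for both without the 2 farthest arrays, permutation adjusted p = 0.0015 and 0.0029). ANAPC4 (a) and (b) went with the SKIL probe CF179878.1_705 (r = 0.42 and 0.38, rho = 0.41 and 0.39, 0.36 and 0.40 within slides, 0.38 and 0.32 without the 2 farthest arrays, permutation adjusted p = 0.00087 and 0.0025). CDC26 in LM had r = 0.46 with ANAPC7, 0.44 with TPX2 and 0.42 with BTRC, but within slides these were 0.29, 0.21 and -0.24.

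Much of the variance of CDC26 in LM lay between slides, which hold different pigs, so that slide and animal cannot be told apart. Over 18 slides of LM with 3 or more arrays (85 arrays), 53.6% of the probes tested differed between slides (limma F test, adjusted p of 0.05 or less), and over 13 slides of SM (88 arrays) 15.0% did. CDC26 in LM had slide means from -0.44 to 0.50, and 69.4% of its variance lay between slides (limma adjusted p = 5.5e-10). In SM its slide means ranged from -1.15 to -0.93, and 8.03% of the variance lay between slides (limma adjusted p = 0.92). The lowest slide mean of LM was above the highest of SM, but no slide held both muscles, so this cannot separate muscle from batch. ANAPC1, ANAPC4 (b) and CDC27 (a) also differed between slides in LM (limma adjusted p = 0.013, 0.012 and 0.024), with 37.1% to 38.4% of their variance between slides. These shares are not adjusted for the number of slides, so part of each is present without any slide effect. No member probe passed in SM. Within LM, arrays read with the 2 versions of the scanner's software differed for 12.1% of the probes, and no member was among them (limma adjusted p from 0.21 to 0.91).

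**Figure D5:**
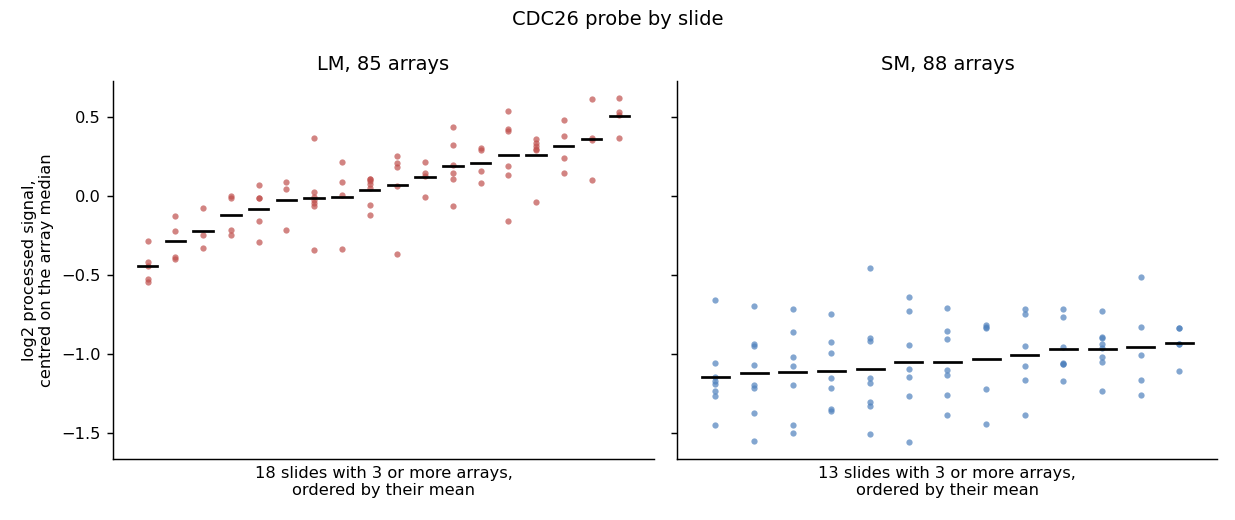
Centred log2 signal of the CDC26 probe (y axis) on the slides of LM (left) and SM (right) that hold 3 or more arrays, ordered by slide mean. Points are arrays and bars are slide means, which span -0.44 to 0.50 in LM and -1.15 to -0.93 in SM.

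A pig with a high value in 1 muscle was not seen to have a high value in the other. For the 6 probes, r of LM with SM over the same pigs ranged from -0.053 for CDC26 to 0.23 for ANAPC4 (a), and none passed (permutation adjusted p from 0.19 to 0.94). ANAPC4 (a) had rho = 0.20, and r = 0.18 without the 2 farthest arrays. Over all kept probes the median of this r was 0.066, with 5% of them below -0.14 and 5% above 0.28.

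By the mean of r in LM and in SM, the named genes most like each member were found among 3851 to 3858 probes with enough arrays in both muscles. CDC27 (a) was most like TSNAX (mean r 0.61), SDCCAG1 (0.61) and HOOK3 (0.59), and CDC27 (b) most like LTV1 (0.63), SDCCAG1 (0.62) and CRBN (0.59), so that SDCCAG1 stood with both. ANAPC4 (a) was most like PEX3 (0.56), CRYZL1 (0.52) and CCDC104 (0.51). CDC26 was most like C15ORF40 (0.55), SLC16A1 (0.54) and AGRN (0.52), of which SLC16A1 and AGRN had r of 0.78 and 0.77 in LM but 0.30 and 0.28 in SM. Within slides r was not computed for these genes. ANAPC1 was most like NLRC3 (0.50), KIAA0907 (0.44) and PKP4 (0.44). ANAPC4 (b) had too few usable spots in SM to be searched, and no member was among the 3 genes most like another.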

How the data were processed

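The scanner's output of 180 arrays was used. As deposited, it holds for each spot a processed signal, an intensity on a linear scale that the authors obtained with Agilent Feature Extraction (versions 9.5.1.1 and 9.5.3.1), with background subtracted and no normalization between arrays. A second table, deposited with 6903 probes as natural log values centred per array, served as an alternative. Control spots were removed and signals put on the log2 scale. Spots were failed on intensity, uniformity or saturation. A probe was dropped where over 50% of its spots failed in 1 of the muscles. Arrays were centred on the median over all spots of the remaining probes, failed ones included. Failed spots then became missing, and values beyond 3 SD of the probe mean were deleted. LM and SM were compared with limma 3.58.1 in R 4.3.3 (statmod 1.5.0 for random blocks), adjusting by Benjamini-Hochberg over 10987 probes. The study's model also held sex, carcass weight and batches of slaughter and hybridization, which the labels do not give. Correlations and within-pig differences were computed with Python 3.11.15, NumPy 2.4.6 and pandas 2.3.3, with two-sided permutation tests, and plotted with matplotlib 3.10.9. The limma, correlation and sign-flip tests were tested on simulated data.

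Probes were named from the study's lists of called probes, whose fold changes and p-values were not used, and the copy of the list for SM at hand was incomplete. Members, gene lists and tests were chosen with earlier results of these data known. The genes named are the members, every gene of 7 lists of APC/C subunits, activators, checkpoint, conjugating enzymes, substrates, SCF and proliferation that had a kept probe, the markers, and the 3 genes most like each member over probes with at least 60 arrays in each muscle. The index of C-rich probes is the mean of probes with 8 or more C in the first 15 bases minus that of probes with 2 or fewer. The number of arrays limits the precision. Alternatives tried were quantile normalization, the 75th percentile as the centre, normexp (offset 50), all spots kept, no removal of outlying values, no filter on dim probes, the pig as a block, slide or scan day as a random block or removed, the C-rich index, LM arrays of 1 software version, Spearman's rho, and leaving out the 2 farthest arrays. Centring on passed spots was added after the data were examined. The labels give the same pig number to both arrays of a pig, so the arrays are paired by animal. The median correlation of the paired deviations over probes was 0.080, and 39 of 90 pairs were above 0.1.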

Additional observations from a re-analysis of the deposited data

How the results depend on the processing

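All 6 members were higher in LM under each of the 13 alternatives, the replicate block for the pig included (6 of 6 called, log2 difference 0.73 for ANAPC1), which changed no call. Their direction was set by the way they were chosen from these same arrays, so this is a description and no further evidence. Of the 16 probes around the complex, 6 to 8 were higher in LM and 6 to 8 in SM. Over the alternatives, called correlations and those of CDC26 with CDC27 lost the call 20 times in LM and 5 times in SM, and gained it 1 time in LM. Of 15 pairs in LM, 7 passed, but 4 with normexp correction, 4 in LM arrays of the same software version and 4 within scan days. With the 75th percentile as the centre, 7 tests between slides passed instead of 4. The sign turned in 3 correlations in LM: ANAPC4 (a) with CDC27 (a) with normexp (-0.078), and CDC26 with CDC27 (a) with quantile normalization (-0.036) and in arrays of the same software version (-0.0038). Differences in log2 ratio turned sign with normexp for ANAPC1 minus ANAPC4 (a) (-0.36), CDC27 (a) (-0.16) and CDC27 (b) (-0.17), for ANAPC4 (a) minus CDC27 (a) (0.20), ANAPC4 (b) minus CDC27 (b) (-0.36) and CDC27 (a) minus (b) (-0.034). With all spots kept they turned for ANAPC1 minus ANAPC4 (b) (-0.066), ANAPC4 (a) minus (b) (-0.24) and ANAPC4 (b) minus CDC27 (a) (0.082), and in the deposited table for the same pairs (-0.077, -0.26 and 0.10). In LM arrays of the same software version ANAPC1 minus CDC27 (a) was -0.046 and ANAPC4 (b) minus CDC27 (b) was -0.026. The cause was not tested. ANAPC1 and ANAPC4 (b) were read near background.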
